A study of Mus musculus with 30 samples.

Results

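Collagen genes were examined in 10 stromal cell populations sorted from mouse intestine. The members were all protein-coding genes whose symbol is Col, a number, the letter a and a number. They came to 44 of the 32316 gene symbols in the data. They were grouped by the structure their chains form, as 11 fibrillar, 9 basement membrane, 3 network, 6 microfibril, 9 FACIT (fibril-associated collagens with interrupted triple helices) and 4 transmembrane collagens, with 2 others.

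The study asked how fibroblast (FB) subsets and other mesenchymal cells of the small intestine (SI) and colon differ, by bulk RNA sequencing of sorted cells. Each population had 3 libraries, made from the intestines of 3 individual mice, giving 30 libraries. The study describes SI and colonic subsets as taken from the same animals, but not which libraries share a mouse, so the 10 populations are not independent sets of mice. All mice were untreated C57BL6/Nrj animals of 8 to 10 weeks. The muscularis externa and the epithelium were removed before the lamina propria was digested, and dead cells, lineage-positive blood cells and cells positive for CD31, BP3, EpCAM or high NCAM were gated out. In the SI, pericytes and smooth muscle cells (SMC) both lacked PDGFRα and carried ESAM-1, and SMC were PDPN+ where pericytes were PDPN-. The ESAM-1- SI fibroblasts were PDGFRα intCD34+ (CD34+ FB, a gate labelled as holding both Igfbp5+ and CD81+ FB), PDGFRα hiCD34- (PDGFRα hi FB) and PDGFRα intCD34- (Fgfr2+ FB). In the colon, pericytes had the SI pericyte gate. The ESAM-1- colonic fibroblasts were PDPN intCD34+CD90- (CD81+ FB), CD34+PDPN hiCD90+ (CD90+ FB), PDPN hiCD34+CD90- (Fgfr2+ FB) and PDPN+CD34- (PDGFRα hi FB). Colonic Fgfr2+ FB were thus sorted as CD34+ and SI Fgfr2+ FB as CD34-. Total RNA was amplified before library construction. In bulk RNA, fewer cells of a type and less RNA per cell cannot be told apart.

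Collagens are proteins whose α chains wind into a triple helix; most are secreted and some span the cell membrane. Fibrillar collagens form the tensile fibrils of the lamina propria, collagen IV forms the sheet of every basement membrane under epithelium and around vessels, collagen VI forms beaded microfibrils near cells, and FACIT collagens bind to the surface of fibrils. Chains are hydroxylated and folded in the endoplasmic reticulum, trimmed by proteinases after secretion and cross-linked by lysyl oxidases.

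The labelled cell types were checked against marker lists, summing CPM (read counts scaled by library size and the trimmed mean of M values) over each list. Fgfr2+ and CD90+ FB had no list of their own, so their labels were checked as fibroblasts in general only. The 6 pericyte markers, led by *Rgs5*, summed to 49504, 32391 and 43548 CPM in the 3 SI pericyte libraries and to 37914, 53157 and 33388 CPM in colonic pericytes. The 6 smooth muscle markers, led by *Myh11*, summed to 21504, 17480 and 21107 CPM in SMC. They also reached 10248, 11427 and 11053 CPM in colonic pericytes, against 4673, 3135 and 3387 CPM in SI pericytes, so that the colonic pericyte libraries carried the higher smooth muscle signal of the pericyte populations. The 5 fibroblast markers, led by *Dcn* or *Pdgfra*, had mean sums of 5276 to 23914 CPM in the 7 fibroblast populations. In SMC they summed to 1484, 2152 and 1811 CPM, sums between those of pericytes and fibroblasts, with all 5 above 3 counts and *Dcn* leading at 1524 CPM. The 6 markers of PDGFRα hi subepithelial fibroblasts summed to 10838, 11682 and 11919 CPM in SI and 6384, 6689.6 and 6219 CPM in colonic PDGFRα hi FB; mean sums were at most 1478 CPM elsewhere. *Pdgfra* is in both the fibroblast and the PDGFRα hi list. The 6 markers of CD81+CD34+ adventitial fibroblasts, led by *Cd34*, summed to 2245, 2741 and 1699.8 CPM in CD81+ FB and 1388, 1221 and 1065 CPM in SI CD34+ FB. In CD90+ FB this list summed to 675, 705 and 645 CPM.

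Signal of other cell types was also present. In SI CD34+ FB the pericyte list, most of it *Rgs5*, summed higher than the adventitial list given above. The pericyte list, again led by *Rgs5*, summed to 4591, 4161 and 7755 CPM in SMC, highest in replicate 3, with all 6 above 3 counts. *Rgs5* led the 6 pericyte markers in SI CD34+ FB, where all 6 were above 3 counts and the list summed to 3972, 4219 and 3590.5 CPM, while in CD81+ FB it summed to 224, 155 and 147 CPM. It summed to 2184, 1849 and 2036 CPM in SI Fgfr2+ FB and, led by *Abcc9*, to 2934, 3417 and 2941 CPM in SI PDGFRα hi FB, each with all 6 above 3 counts. The 6 endothelial markers, led by *Pecam1*, had mean sums of at most 109 CPM, and SMC replicate 3 stood above the other SMC libraries (42.4, 46.0 and 181 CPM). The 6 immune markers summed to 204, 4.92 and 30.3 CPM in SI pericytes, with 3 of the 6 above 3 counts, *Cd79a* highest, *Cd52* at 0 and replicate 1 far above the others, and to 10.2, 96.4 and 29.1 CPM in colonic pericytes, led by *Lyz2*. Of the 3 markers of interstitial cells of Cajal, *Ano1* led in pericytes. The list summed to 1159, 584 and 742 CPM in SI and 808, 901 and 687 CPM in colonic pericytes. *Ano1* alone had means of 779 and 723 CPM there, of mean sums of 828 and 798 CPM. *Kit*, of the same list, was at 0.429, 0 and 8.37 CPM in SI and 0, 0.126 and 0 CPM in colonic pericytes. Mean sums of the 6 epithelial markers (led by *Lgals4*, with *Epcam* at 0 in 8 of 10 populations) were at most 29.8 CPM and those of the 4 mesothelial markers (led by *Krt7* except in CD81+ FB, where *Wt1* led) at most 14.4 CPM. The part of these other signals in the collagen values was not tested.

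Depth was 2245052 to 19096945 estimated counts per library (median 9601683). It came to 6185421, 9075187 and 7860140 counts in SI pericytes and 8866828, 9512574 and 13507159 in SMC. SI CD34+ FB had 11729938, 11930055 and 9432531 counts, SI Fgfr2+ FB 15098412, 10286761 and 2245052 and SI PDGFRα hi FB 7327358, 18148945 and 8041204. The colonic pericyte libraries held 9225411, 9314458 and 13866610 counts. Among colonic fibroblasts, depth was 16181861, 18710840 and 13102446 counts in CD81+ FB, 19096945, 15840424 and 14456220 in CD90+ FB, 8740291, 9785938 and 9690792 in Fgfr2+ FB and 7248567, 6865683 and 6986681 in PDGFRα hi FB. SI Fgfr2+ FB replicate 3 was the shallowest library. Pearson's r of log expression between libraries of a population was lowest in SI pericytes, at 0.722 to 0.803, and highest in SI CD34+ FB, at 0.964 to 0.972. Intervals and lower bounds given here cover counting error only. Values in 3 libraries are listed in the order of the replicates.

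Collagen genes took the largest share of the counts matched to genes in CD34+ and CD81+ FB and the smallest in pericytes. The share was 9.02, 4.51 and 7.30% in the SI CD34+ FB libraries and 5.80, 4.29 and 7.07% in CD81+ FB. It was 3.37, 3.09 and 3.31% in SI Fgfr2+ FB and 3.53, 3.05 and 3.39% in SI PDGFRα hi FB. These SI populations overlapped each other and lay below all SI CD34+ FB libraries. Colonic CD90+ FB (4.94, 3.86 and 5.12%), Fgfr2+ FB (4.34, 3.79 and 5.196%) and PDGFRα hi FB (4.43, 3.59 and 5.14%) overlapped, and CD81+ FB overlapped them as well. SMC had 1.71, 1.40 and 1.60%, overlapping SI pericytes at 1.64, 1.27 and 1.23%. Colonic pericytes had 0.871, 0.789 and 0.769%, below every other library. The means ± SD (n = 3) ran from 0.810% ± 0.0542 in colonic pericytes to 6.94% ± 2.28 in SI CD34+ FB.

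**Figure D1:**
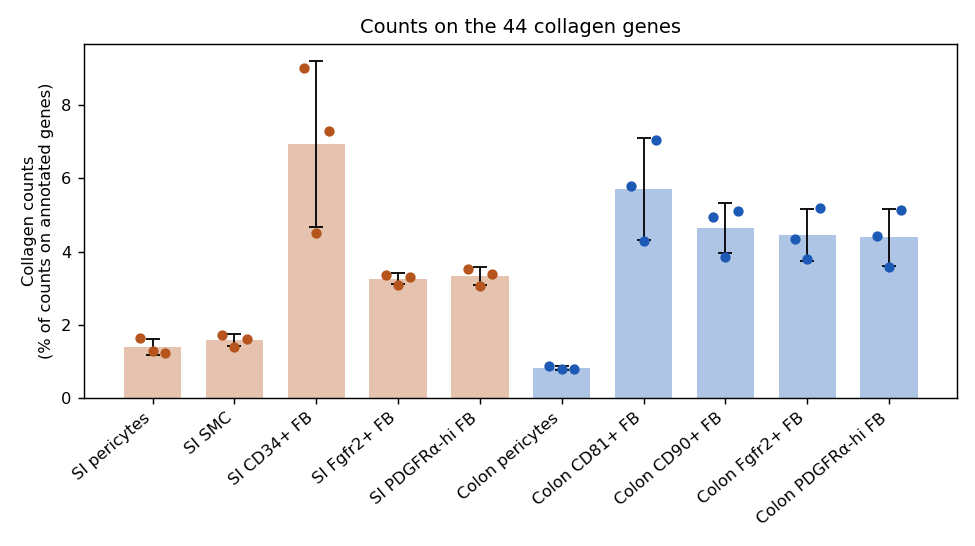
Share of the counts matched to genes that fell on the 44 collagen genes, in percent, for each of the 10 populations; dots are libraries, bars are means with SD as error bars, orange marks SI and blue marks colon. Colonic pericytes sit lowest and SI CD34+ and colonic CD81+ FB highest.

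To set genes beside each other, counts were divided by effective transcript length in kilobases and scaled to normalised library size, as for CPM (level per length). All collagens together had a mean level per length of 17196 in SI CD34+ FB, 15931 in CD81+ FB, 3899 in SI pericytes, 3749 in SMC and 1805 in colonic pericytes. Fibrillar genes made up 79.8% ± 5.82 (SD, n = 3) of it in SI CD34+ FB and 73.5% ± 1.94 in CD81+ FB, but 39.6% ± 3.62 in SI PDGFRα hi FB, 43.9% ± 2.19 in SI pericytes and 39.3% ± 4.02 in colonic pericytes. Basement membrane genes reached 37.5% ± 2.44 in SI and 41.2% ± 3.39 in colonic pericytes, with mean levels per length of 1446 and 747. In the fibroblast populations of both tissues that level was 695 (CD81+ FB) to 1514 (CD90+ FB), and both pericyte means lay within its range. Within SI, all pericyte libraries (2132.5, 1148.6 and 1056.3) were above all fibroblast libraries (at most 1015.6), while colonic pericytes overlapped colonic fibroblasts. In SMC and the fibroblasts the mean share of basement membrane genes lay between 4.43% (CD81+ FB) and 14.8% (CD90+ FB). Microfibril genes made up 36.7% ± 2.83 in SI PDGFRα hi FB and 25.7% ± 3.07 in SI Fgfr2+ FB. Their share was 21.2% ± 2.22 in colonic PDGFRα hi FB and 11.8% ± 1.3003 in colonic Fgfr2+ FB. FACIT genes had their largest mean shares in SI PDGFRα hi FB (11.02% ± 1.76) and CD81+ FB (10.1% ± 4.196). The CD81+ FB libraries were at 6.84, 8.63 and 14.8%, highest in replicate 3. The FACIT gene *Col16a1* was at 173, 43.0 and 2022 per length in them. Network genes stood at 4.65% ± 4.68 in SMC, where the SD was as large as the mean, and 3.01% ± 0.495 in CD81+ FB.

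*Col3a1*, the chain of collagen III, had the highest mean level per length of all collagens in 8 of 10 populations, SI pericytes among them. In CPM, which is not divided by length, *Col3a1* was below *Col4a2* in all SI pericyte libraries (2167, 1411.5 and 1235 against 5125, 3415 and 3012 CPM). In SI CD34+ FB its level was 6821 ± 3285 (SD, n = 3) and in CD81+ FB 5481 ± 1942. In SI PDGFRα hi FB the collagen VI gene *Col6a2* was highest per length, at 1400.1 ± 238. In colonic pericytes the collagen IV gene *Col4a2* had the highest mean, at 324 ± 14.2, with *Col3a1* close to it at 318 ± 18.9 and above it in replicate 3.

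**Figure D2:**
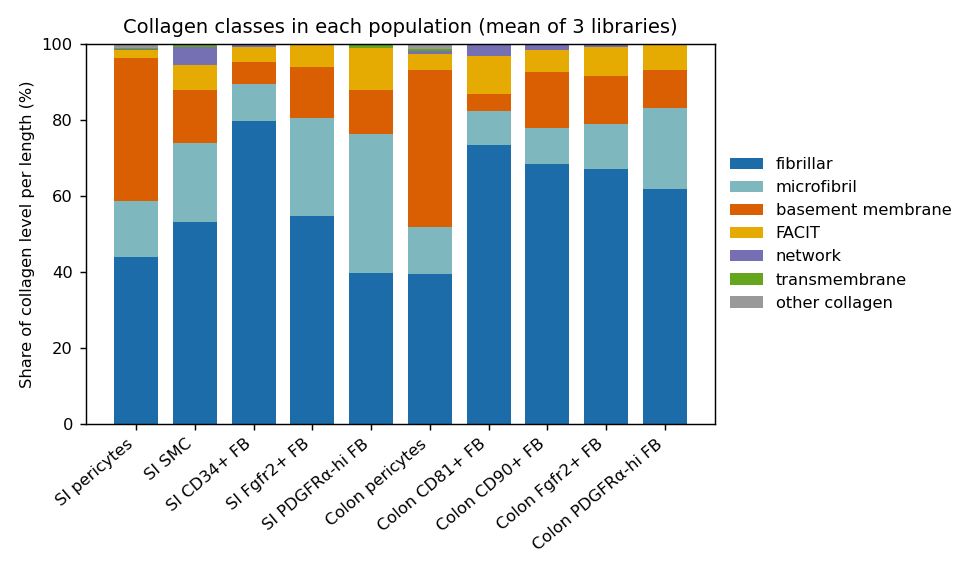
Share of each structural class in the summed level per length of the collagen genes, in percent, as the mean of 3 libraries for each of the 10 populations. The basement membrane share is larger in pericytes, at 37.5% and 41.2%, than in the other populations, and in SI pericytes the fibrillar share is larger still.

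In 1 edgeR model of all 30 libraries, 17542 genes passed a filter on low counts (at least 6 counts in at least 3 libraries), 42 of the 44 collagens among them. The chains *Col2a1* and *Col9a1* did not pass, with at most 8 and 25 counts in any library. A test of any difference among the 10 populations was passed by 32 of the 42 (adjusted p below 0.05), where 26.4% of all tested genes passed. The smallest adjusted p belonged to *Col14a1* (1.38e-13). Those that did not pass were *Col11a1*, *Col11a2*, *Col8a2*, *Col10a1*, *Col6a6*, *Col9a2*, *Col9a3*, *Col17a1*, *Col25a1* and *Col26a1*. Calls of 4 genes in this test ended without 1 library: those of *Col4a3* without SI pericytes replicate 2 (adjusted p = 0.0851); *Col20a1* without CD81+ FB replicate 1 (adjusted p = 0.158); *Col22a1* without SI Fgfr2+ FB replicate 3 (adjusted p = 0.0754); *Col7a1* when any 1 of 19 libraries was left out (adjusted p from 0.0519 to 0.147). The *Col7a1* call also ended with a block for replicate number, and that of *Col22a1* without the filter. In the comparisons between populations that follow, a gene was called when the adjusted p was below 0.05 and the log2 fold change above 1.5 in either direction. Fold changes are log2 ± standard error (SE).

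**Figure D3:**
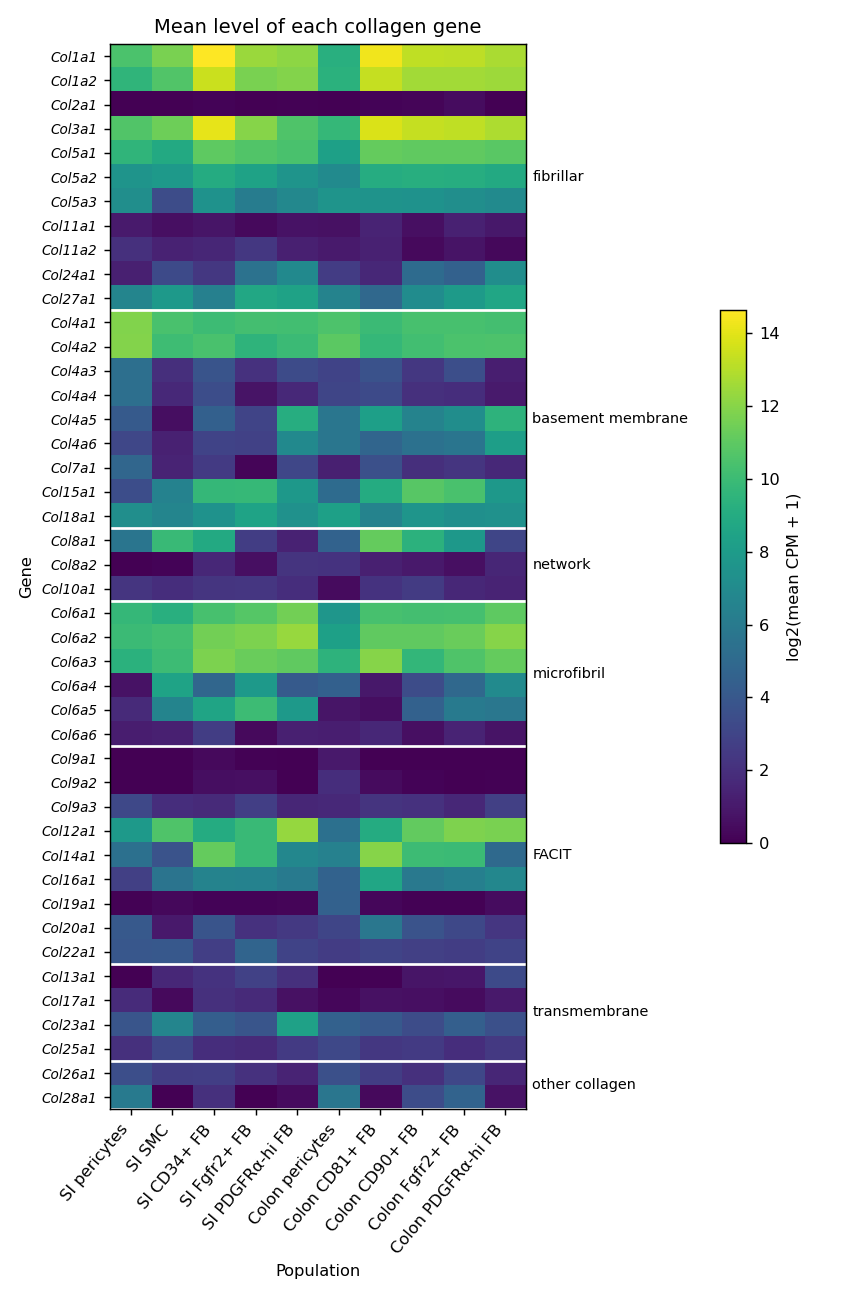
Mean level of the 44 collagen genes in the 10 populations, as log2(mean CPM + 1), ordered by structural class. *Col3a1* and *Col1a1* are high in all fibroblast populations, while several chains of low level show colour in 1 or few populations only.

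SI pericytes were compared with the 3 SI fibroblast populations to see how the collagen genes of vessel-associated cells differ from those of fibroblasts. The same 9 fibroblast libraries serve the comparison of SMC. Of the 42 tested collagens 6 were higher and 14 lower in pericytes, while 9.48% of all tested genes were called higher and 7.07% lower. The median log2 fold change was −1.103 over the collagens and −0.02 over all tested genes, and placing the 2 genes without counts at their bounds left it there. By class, 5 of the 6 higher genes were basement membrane genes. All 4 fibrillar, 4 microfibril and 3 FACIT calls were lower.

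*Col1a2*, a chain of collagen I, the main fibril former, was at 799.6, 879.6 and 581 CPM in SI pericytes, and at 2886 to 15788 CPM (median 3943) in the 9 SI fibroblast libraries. The groups did not overlap (log2 fold change −2.80 ± 0.27, adjusted p = 8.59e-09), nor for its partner *Col1a1* (log2 fold change −2.58 ± 0.34, adjusted p = 1.64e-06). *Col3a1* overlapped between the groups (log2 fold change −1.60 ± 0.28, adjusted p = 1.33e-04), and its call ended without SI pericytes replicate 3 (log2 fold change −1.44, adjusted p = 0.00234). *Col24a1*, a fibrillar chain of low level, was at 0.215, 0 and 4.06 CPM in pericytes against 3.34 to 136 CPM (median 40.8) in fibroblasts, an overlap. Its log2 fold change was −4.24 ± 1.18 (adjusted p = 0.0109), and the call ended without SI pericytes replicate 1 (log2 fold change −3.82, adjusted p = 0.0539), while the value became −8.21 without SI pericytes replicate 3.

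The collagen IV genes *Col4a1* and *Col4a2*, chains of the general basement membrane, were above all SI fibroblast libraries. *Col4a2* was at 5125, 3415 and 3012 CPM in pericytes and at 610.5 to 1576 CPM (median 1044) in fibroblasts (log2 fold change 1.94 ± 0.19, adjusted p = 6.85e-09). *Col4a1* was higher too (log2 fold change 1.66 ± 0.21, adjusted p = 1.01e-06), and its call ended without SI pericytes replicate 1 (log2 fold change 1.21, adjusted p = 2.10e-04). *Col4a4*, a chain of a specialised collagen IV network, was at 49.6, 19.95 and 48.0 CPM against 0.140 to 10.96 CPM (median 2.28) (log2 fold change 3.93 ± 0.77, adjusted p = 4.60e-04). Its partner *Col4a3* overlapped (log2 fold change 2.46 ± 0.71, adjusted p = 0.0144), with the call ending without SI pericytes replicate 2 (log2 fold change 1.61, adjusted p = 0.187). *Col7a1*, the anchoring fibril chain, was at 1.72, 28.8 and 52.4 CPM against 0 to 15.9 CPM (median 2.18) and overlapped (log2 fold change 4.04 ± 1.095, adjusted p = 0.00936). The call of *Col7a1* ended without SI pericytes replicate 3 (log2 fold change 3.18, adjusted p = 0.0592). *Col15a1*, a multiplexin of basement membrane zones, was the lower one: it was at 2.36, 1.77 and 26.5 CPM against 145 to 1049 CPM (median 814), with no overlap (log2 fold change −5.75 ± 1.01, adjusted p = 1.21e-04).

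The microfibril genes *Col6a4* and *Col6a5*, alternative long chains of collagen VI, were low in pericytes. *Col6a5* was at 2.15, 1.26 and 3.57 CPM against 206 to 1179 CPM (median 347) in fibroblasts (log2 fold change −7.58 ± 0.93, adjusted p = 5.38e-07). *Col6a4* was at 0.644, 0.126 and 1.23 CPM against 13.5 to 358 CPM (median 30.4) (log2 fold change −6.11 ± 0.63, adjusted p = 2.65e-08). Neither overlapped. *Col6a2* (log2 fold change −1.89 ± 0.28, adjusted p = 8.92e-06) and *Col6a3* (log2 fold change −2.01 ± 0.22, adjusted p = 8.96e-08) were lower without overlap as well.

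The FACIT gene *Col14a1* was at 62.5, 30.7 and 28.7 CPM in SI pericytes and at 80.8 to 2694 CPM (median 1059.7) in SI fibroblasts (log2 fold change −3.94 ± 0.46, adjusted p = 2.01e-07). For *Col16a1*, another FACIT, the values were 0.644, 6.31 and 10.2 CPM and 32.2 to 138 CPM (median 84.7) (log2 fold change −3.81 ± 0.77, adjusted p = 5.89e-04). *Col12a1* also fell below the fibroblast range (log2 fold change −2.53 ± 0.35, adjusted p = 3.11e-06). For these 3 genes every pericyte library lay below every fibroblast library. *Col28a1*, a collagen with von Willebrand factor domains, was at 96.4, 63.3 and 22.9 CPM in pericytes against 0 to 3.24 CPM (median 0.113) in fibroblasts, the pericyte libraries all above (log2 fold change 7.38 ± 0.70, adjusted p = 8.69e-09). The transmembrane gene *Col13a1* had 0 counts in the 3 pericyte libraries and 0.115 to 15.4 CPM (median 3.88) in fibroblasts, and was at least 9.09-fold lower, taking 3 counts per library as the floor, or 5.76-fold without SI Fgfr2+ FB replicate 2. Its call was kept in each of the fits that left out 1 library. *Col8a2*, a network chain, had 0 counts in pericytes and 0 to 8.57 CPM (median 1.40) in fibroblasts, at least 4.44-fold lower, or 2.64-fold without SI PDGFRα hi FB replicate 1; its call ended when any 1 of 4 libraries was left out, namely SI pericytes replicates 1, 2 and 3 and SI PDGFRα hi FB replicate 1 (log2 fold changes from −7.05 to −6.46, adjusted p from 0.0523 to 0.0922) and in a fit of only the compared libraries.

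Among genes that act on collagens, calls were made for 5 of the 19 folding and modification genes (1 higher and 4 lower), 3 of the 13 processing and cross-linking genes (all lower) and 4 of the 7 receptor and uptake genes (2 higher and 2 lower). *Plod1*, a lysyl hydroxylase, was at 32.2, 27.4 and 44.3 CPM in pericytes against 113 to 749 CPM in fibroblasts (log2 fold change −3.05 ± 0.56, adjusted p = 1.95e-04). In the opposite direction, *P3h2*, a prolyl 3-hydroxylase, was at 454, 402 and 302 CPM against 17.0 to 95.6 CPM (log2 fold change 3.35 ± 0.45, adjusted p = 2.18e-06). *Itga1*, an integrin chain of a collagen receptor, was at 1034, 684 and 588 CPM against 48.3 to 504 CPM (log2 fold change 2.70 ± 0.33, adjusted p = 6.03e-07). *Itga11*, the chain of a fibrillar collagen receptor, was at 9.23, 3.28 and 2.83 CPM against 138 to 1961 CPM (log2 fold change −6.57 ± 0.63, adjusted p = 6.30e-09).

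Colonic pericytes were compared with the 4 colonic fibroblast populations in the same way. There were 3 collagens called higher and 15 lower of the 42 tested, where 9.29% of all tested genes were called higher and 6.70% lower. The median log2 fold change was −0.81 over the collagens and 0.01 over all tested genes. All 5 fibrillar and 3 microfibril calls were lower. Whether pericyte differences in SI and colon themselves differ was not tested.

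*Col1a1* was at 609, 448 and 746 CPM in colonic pericytes and at 4757 to 26331 CPM (median 9222) in the 12 colonic fibroblast libraries (log2 fold change −4.15 ± 0.37, adjusted p = 1.20e-09). *Col1a2* was at 542, 749 and 689 CPM against 4706 to 12934 CPM (median 6639.7) (log2 fold change −3.40 ± 0.28, adjusted p = 2.40e-10). *Col3a1* was at 829, 908 and 867 CPM against 5229 to 19638 CPM (median 10006) (log2 fold change −3.53 ± 0.32, adjusted p = 1.34e-09). All pericyte libraries lay below all fibroblast libraries for these 3 fibril genes. The other fibrillar calls, of the collagen V chains that set fibril diameter, were lower without overlap for both *Col5a1* (log2 fold change −2.76 ± 0.31, adjusted p = 9.94e-08) and *Col5a2* (log2 fold change −2.04 ± 0.34, adjusted p = 5.43e-05).

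*Col15a1* was at 16.6, 9.70 and 73.6 CPM in colonic pericytes against 194 to 2104 CPM (median 1107), with no overlap (log2 fold change −4.46 ± 0.93, adjusted p = 7.81e-04). *Col4a5*, a collagen IV chain, overlapped (log2 fold change −2.15 ± 0.67, adjusted p = 0.0246), and its call ended when any 1 of 2 libraries was left out, namely colonic pericytes replicates 1 and 2 (log2 fold changes from −2.26 to −1.83, adjusted p from 0.0705 to 0.118). The microfibril genes *Col6a1* (log2 fold change −2.84 ± 0.39, adjusted p = 2.14e-06) and *Col6a2* (log2 fold change −3.00 ± 0.29, adjusted p = 6.61e-09) were lower without overlap. *Col6a5* was at 1.94, 0.252 and 0.0718 CPM against 0.0631 to 77.5 CPM (median 37.0) and overlapped (log2 fold change −4.22 ± 0.82, adjusted p = 3.72e-04), and its value moved to −6.48 without colonic pericytes replicate 1. *Col8a1*, a network chain found around vessels, was at 9.47, 2.65 and 59.1 CPM against 5.62 to 3269 CPM (median 474) and overlapped (log2 fold change −3.25 ± 0.91, adjusted p = 0.0114). The *Col8a1* call ended when any 1 of 2 libraries was left out, namely colonic pericytes replicates 1 and 2 (log2 fold changes from −2.87 to −2.71, adjusted p from 0.0659 to 0.0661), and the value moved to −5.21 without colonic pericytes replicate 3.

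The FACIT gene *Col12a1* was at 39.8, 62.1 and 24.1 CPM in colonic pericytes against 226 to 4046 CPM (median 2621), with no overlap (log2 fold change −5.52 ± 0.41, adjusted p = 3.64e-11). *Col14a1* was lower as well, with overlap (log2 fold change −2.82 ± 0.42, adjusted p = 9.64e-06). *Col16a1* was lower, with no overlap (log2 fold change −2.38 ± 0.68, adjusted p = 0.0133), but its call ended when any 1 of 2 libraries was left out, namely colonic pericytes replicates 2 and 3 (log2 fold changes from −2.19 to −2.15, adjusted p from 0.067 to 0.0735). A FACIT of restricted expression, *Col19a1*, went the other way: it was at 9.36, 19.2 and 38.1 CPM in pericytes against 0 to 0.894 CPM (median 0.0708), with no overlap (log2 fold change 7.26 ± 0.95, adjusted p = 1.12e-06). *Col9a2* was at 1.18, 7.06 and 0 CPM against 0 to 1.08 CPM (median 0), overlapping (log2 fold change 4.78 ± 1.49, adjusted p = 0.0277), and its call ended without colonic pericytes replicate 2 (log2 fold change 2.52, adjusted p = 0.374) and with DESeq2. *Col28a1* was at 67.1, 49.2 and 43.4 CPM against 0.0780 to 36.7 CPM (median 3.60), with no overlap (log2 fold change 4.31 ± 0.56, adjusted p = 1.38e-06). *Col13a1* had 0 counts in the 3 pericyte libraries and 0 to 12.2 CPM (median 0.557) in fibroblasts, at least 8.47-fold lower with the floor of 3 counts per library. The *Col13a1* call ended when any 1 of 5 libraries was left out, namely colonic pericytes replicates 1, 2 and 3, CD81+ FB replicate 1 and CD90+ FB replicate 2 (log2 fold changes from −6.19 to −5.44, adjusted p from 0.0501 to 0.107) and with the replicate block.

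Calls among the other genes of the pathway were 9 of the 19 folding and modification genes (1 higher and 8 lower), 6 of the 13 processing and cross-linking genes (all lower) and 4 of the 7 receptor and uptake genes (2 higher and 2 lower). *P3h2* was at 576, 679 and 556 CPM in colonic pericytes against 1.32 to 259 CPM in colonic fibroblasts (log2 fold change 3.29 ± 0.41, adjusted p = 5.81e-07). The chaperone gene *Serpinh1*, whose product binds procollagen, was at 125, 55.6 and 80.1 CPM against 326 to 715 CPM (log2 fold change −2.58 ± 0.45, adjusted p = 9.40e-05). *Loxl2*, a lysyl oxidase, was at 296, 214 and 219 CPM against 764 to 1690 CPM (log2 fold change −2.29 ± 0.31, adjusted p = 2.13e-06).

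SMC were compared with the same SI fibroblast libraries. In SMC 2 collagens were higher and 10 lower of the 42 tested, where 3.42% of all tested genes were called higher and 1.74% lower. The collagen median was −0.89 log2, or −0.78 with 2 genes without counts at their bounds, against −0.04 over all tested genes. SMC replicate 3 stood apart for several chains. Fibroblast markers were higher in SMC than in pericytes, and pericyte markers in SMC were highest in replicate 3, as given above; their part in these values was not tested.

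*Col5a3* was at 14.3, 13.0 and 1.21 CPM in SMC and at 25.3 to 180.4 CPM (median 118) in the 9 SI fibroblast libraries, with no overlap (log2 fold change −3.55 ± 0.61, adjusted p = 2.06e-04). *Col5a1* was lower, with no overlap (log2 fold change −1.84 ± 0.30, adjusted p = 8.65e-05), as was *Col1a2*, with no overlap (log2 fold change −1.69 ± 0.25, adjusted p = 3.03e-05). *Col4a5*, which pairs with *Col4a6* in the collagen IV network of smooth muscle, was at 0.211, 0.289 and 0.881 CPM against 0.993 to 588 CPM (median 18.8), with no overlap (log2 fold change −6.51 ± 0.95, adjusted p = 2.20e-05). *Col4a6* was lower, with overlap (log2 fold change −3.45 ± 0.77, adjusted p = 0.00397). *Col14a1* was at 7.59, 23.1 and 6.28 CPM against 80.8 to 2694 CPM (median 1059.7), with no overlap (log2 fold change −5.66 ± 0.51, adjusted p = 6.11e-09).

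*Col8a1* was at 421, 216 and 2305 CPM in SMC, highest in replicate 3, and at 1.34 to 635 CPM (median 2.17) in SI fibroblasts. The groups overlapped (log2 fold change 5.996 ± 0.72, adjusted p = 9.35e-07). *Col6a4* was at 436, 314 and 324 CPM against 13.5 to 358 CPM (median 30.4), an overlap (log2 fold change 2.92 ± 0.37, adjusted p = 2.39e-06). *Col6a1* (log2 fold change −1.66 ± 0.36, adjusted p = 0.00305) and *Col6a2* (log2 fold change −1.69 ± 0.27, adjusted p = 8.20e-05) were lower with no overlap. *Col6a5* was at 29.5, 17.7 and 237 CPM, again highest in replicate 3, and overlapped the fibroblasts (log2 fold change −2.24 ± 0.67, adjusted p = 0.0393). Its call ended when any 1 of 8 libraries was left out, namely SMC replicates 1 and 2, SI CD34+ FB replicates 1, 2 and 3, SI Fgfr2+ FB replicate 1 and SI PDGFRα hi FB replicates 1 and 2 (log2 fold changes from −2.27 to −1.75, adjusted p from 0.051 to 0.183), and its value moved to −4.22 without SMC replicate 3. *Col28a1* had 0 counts in the 3 SMC libraries and 0 to 3.24 CPM (median 0.113) in SI fibroblasts, and was at least 3.69-fold lower. The call ended when any 1 of 8 libraries was left out, namely SMC replicates 1, 2 and 3, SI CD34+ FB replicates 1, 2 and 3, SI Fgfr2+ FB replicate 1 and SI PDGFRα hi FB replicate 3 (log2 fold changes from −4.98 to −4.28, adjusted p from 0.0519 to 1), and also without the filter, with the replicate block and in a fit of only the compared libraries.

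The pathway lists gave 6 of the 19 folding and modification genes (1 higher and 5 lower), 1 of the 13 processing and cross-linking genes (lower) and 1 of the 7 receptor and uptake genes (lower). *P3h2* was at 192, 193 and 755 CPM in SMC against 17.0 to 95.6 CPM in SI fibroblasts (log2 fold change 3.33 ± 0.45, adjusted p = 5.92e-06). *Mrc2*, the gene of an endocytic collagen receptor, was at 20.3, 21.0 and 2.31 CPM against 100.4 to 424 CPM (log2 fold change −4.21 ± 0.77, adjusted p = 4.51e-04). *Plod1* was at 70.7, 55.1 and 14.6 CPM against 113 to 749 CPM (log2 fold change −2.62 ± 0.54, adjusted p = 0.00188).

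SI pericytes and SMC were set against each other, 3 libraries each. They share these libraries with the comparisons above. SMC also carried pericyte and fibroblast markers, given above, whose part was not tested. Pericytes had 8 collagens higher and 8 lower of the 42 tested, where 4.79% of all tested genes were called higher and 5.35% lower. The collagen median was −0.03 log2 and that of all tested genes 0.00. In a fit of only the compared libraries 4 of the 16 calls remained, those of *Col4a2*, *Col6a4*, *Col12a1* and *Col28a1*. That fit called 390 genes in all, where the main fit called 1779 of 17542. Without SMC replicate 1 or 3 the count of collagens was 10.

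*Col28a1* was at 96.4, 63.3 and 22.9 CPM in pericytes and had 0 counts in the 3 SMC libraries, so that it was at least 195-fold higher. *Col6a4* was at 0.644, 0.126 and 1.23 CPM in pericytes and 436, 314 and 324 CPM in SMC (log2 fold change −9.03 ± 0.73, adjusted p = 1.20e-09). *Col6a5* was at 29.5, 17.7 and 237 CPM in SMC (log2 fold change −5.34 ± 0.88, adjusted p = 9.07e-05), with the value moving to −3.38 without SMC replicate 3. *Col13a1* had 0 counts in pericytes and 5.48, 0.193 and 0.550 CPM in SMC, at least 4.47-fold lower in pericytes. This bound rests on SMC replicate 1, and without it the SMC mean is below the floor. The *Col13a1* call ended when any 1 of 8 libraries was left out, namely SI pericytes replicates 1, 2 and 3, SMC replicate 1, SI CD34+ FB replicates 2 and 3, SI PDGFRα hi FB replicate 1 and colonic PDGFRα hi FB replicate 3 (log2 fold changes from −7.52 to −5.03, adjusted p from 0.0502 to 0.182) and with the replicate block.

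*Col4a5* was at 32.6, 5.05 and 12.9 CPM in pericytes and 0.211, 0.289 and 0.881 CPM in SMC, with no overlap (log2 fold change 5.17 ± 0.96, adjusted p = 4.17e-04). *Col4a4* was at 49.6, 19.95 and 48.0 CPM and 1.05, 5.68 and 0 CPM (log2 fold change 4.11 ± 1.17, adjusted p = 0.0208). The call of *Col4a4* ended when any 1 of 2 libraries was left out, namely SMC replicates 1 and 3 (log2 fold changes from 3.47 to 3.78, adjusted p from 0.0567 to 0.0831), and its value was 6.18 without SMC replicate 2. *Col4a3* overlapped (log2 fold change 3.79 ± 1.07, adjusted p = 0.0196) and its call ended when any 1 of 3 libraries was left out, namely SI pericytes replicate 2 and SMC replicates 1 and 3 (log2 fold changes from 2.94 to 3.48, adjusted p from 0.081 to 0.0959). *Col4a2* was higher without overlap (log2 fold change 1.81 ± 0.26, adjusted p = 1.23e-05), its call ending without SI pericytes replicate 1 (log2 fold change 1.49, adjusted p = 1.93e-04). *Col5a3* was at 148, 139 and 153 CPM and 14.3, 13.0 and 1.21 CPM (log2 fold change 3.94 ± 0.67, adjusted p = 1.34e-04). *Col15a1* overlapped, with 15.5, 19.3 and 233 CPM in SMC (log2 fold change −3.11 ± 0.94, adjusted p = 0.03). The call of *Col15a1* ended when any 1 of 3 libraries was left out, namely SI pericytes replicates 1 and 2 and SMC replicate 3 (log2 fold changes from −2.73 to −0.80, adjusted p from 0.0996 to 0.623), and its value moved to −5.44 without SI pericytes replicate 3.

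*Col8a1* was at 2.58, 128 and 20.4 CPM in pericytes and 421, 216 and 2305 CPM in SMC (log2 fold change −4.28 ± 1.04, adjusted p = 0.00642), and its call ended without SMC replicate 3 (log2 fold change −2.71, adjusted p = 0.0839). *Col16a1* was at 52.0, 36.2 and 58.5 CPM in SMC (log2 fold change −3.07 ± 0.79, adjusted p = 0.0109). *Col12a1* was lower in all 3 pericyte libraries (log2 fold change −2.73 ± 0.38, adjusted p = 9.51e-06). *Col20a1*, a FACIT, was at 31.3, 12.9 and 3.57 CPM and 1.79, 0.193 and 0.991 CPM (log2 fold change 3.99 ± 1.24, adjusted p = 0.0359). The *Col20a1* call ended when any 1 of 4 libraries was left out, namely SI pericytes replicate 1 and SMC replicates 1, 2 and 3 (log2 fold changes from 2.98 to 4.73, adjusted p from 0.0537 to 0.142). *Col14a1* (log2 fold change 1.71 ± 0.45, adjusted p = 0.0123) lost its call when any 1 of 3 libraries was left out, namely SI pericytes replicate 1 and SMC replicates 1 and 3 (log2 fold changes from 1.203 to 1.46, adjusted p from 0.0693 to 0.11). *Col23a1*, a transmembrane collagen, was lower in pericytes (log2 fold change −2.90 ± 0.91, adjusted p = 0.0366). Its call ended when any 1 of 4 libraries was left out, namely SI pericytes replicates 1 and 3 and SMC replicates 1 and 2 (log2 fold changes from −3.01 to −2.45, adjusted p from 0.0523 to 0.113), and its value moved to −4.95 without SI pericytes replicate 2. Among pathway genes, calls were made for 2 of the 19 folding and modification genes (both lower), 2 of the 13 processing and cross-linking genes (both higher) and 2 of the 7 receptor and uptake genes (1 higher and 1 lower). With only the compared libraries these lists had 0, 0 and 1 calls. *Itga11* was at 9.23, 3.28 and 2.83 CPM in pericytes against 103, 212 and 380.4 CPM in SMC (log2 fold change −5.53 ± 0.63, adjusted p = 3.10e-07).

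**Figure D4:**
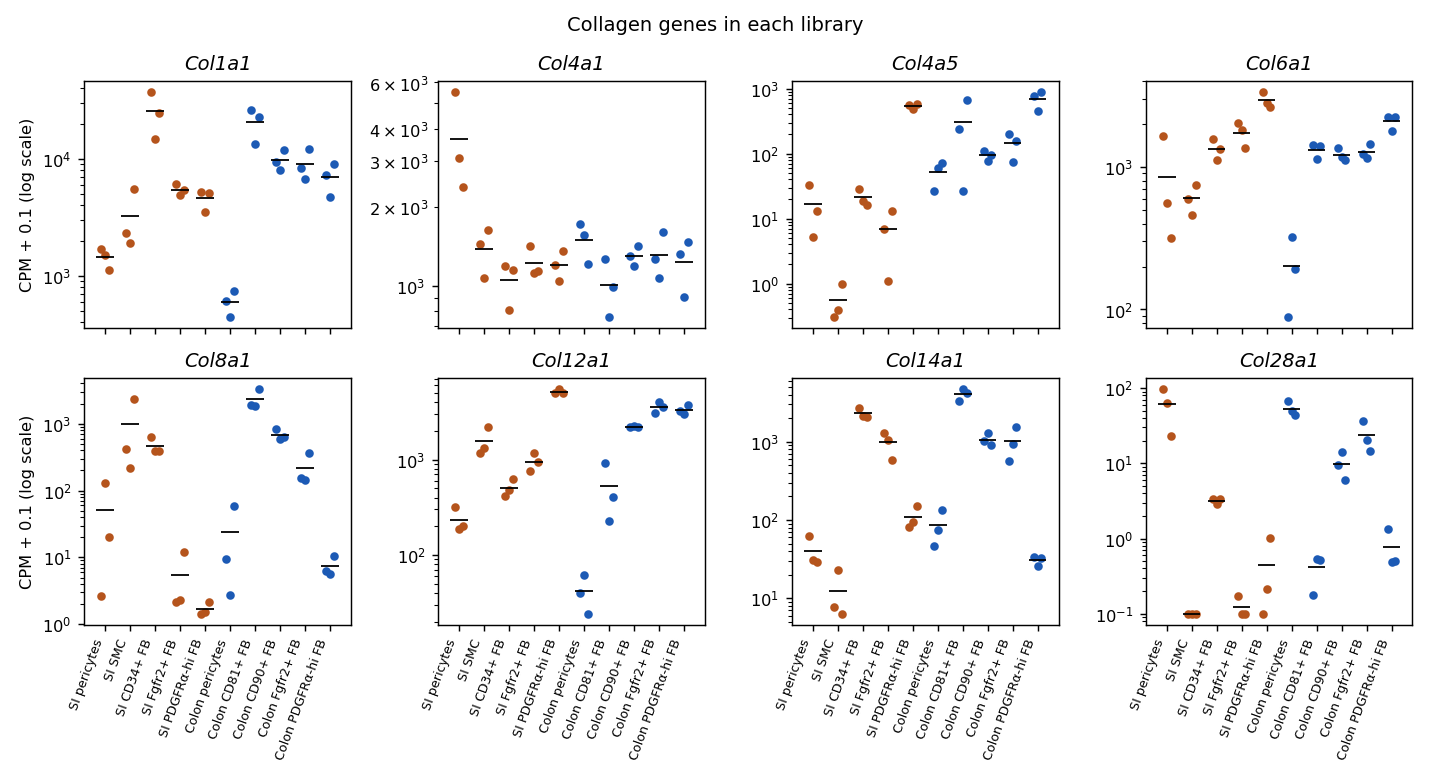
CPM of 8 collagen genes in each library of the 10 populations, on a log axis of CPM + 0.1; dots are libraries, bars are means, orange marks SI and blue marks colon. *Col4a1* is highest in SI pericytes and *Col8a1* differs between libraries of SMC.

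The Fgfr2+ and PDGFRα hi subsets were set against each other over both tissues, with 6 libraries of each, to see how collagens differ between them. Of the 42 tested collagens 3 were higher and 2 lower in Fgfr2+ FB, where 1.66% of all tested genes were called higher and 1.33% lower. The median log2 fold change was −0.02 over the collagens and 0.00 over all tested genes. Smooth muscle markers were higher in PDGFRα hi FB. Their mean sums were 2615 CPM in SI and 1500.3 CPM in colon, against 676 and 293 CPM in Fgfr2+ FB. Markers of interstitial cells of Cajal, led by *Etv1*, had mean sums of 469 and 253 CPM against 115 and 80.9 CPM. *Kit*, of that list, was at 7.10, 8.52 and 43.4 CPM in SI and 0.123, 0.128 and 1.90 CPM in colonic PDGFRα hi FB. For the pericyte list the sums were 3097 and 453 CPM against 2023 and 656 CPM. The part of these markers was not tested. *Col14a1* was at 559 to 1533 CPM (median 1001) in Fgfr2+ FB and 25.5 to 149 CPM (median 57.2) in PDGFRα hi FB (log2 fold change 4.11 ± 0.35, adjusted p = 3.15e-09). No library of either group reached the other's range. *Col8a1* was at 2.02 to 364 CPM (median 77.3) and 1.34 to 10.5 CPM (median 3.84), with overlap (log2 fold change 3.23 ± 0.74, adjusted p = 0.00726). In colon *Col8a1* was at 153, 143 and 364 CPM against 6.13, 5.62 and 10.5 CPM. In SI it was low in both subsets, at 2.02, 2.17 and 11.8 CPM against 1.34, 1.41 and 2.07 CPM. *Col4a5* was at 0.993 to 199.97 CPM (median 42.9) and 448 to 878 CPM (median 578) (log2 fold change −4.33 ± 0.60, adjusted p = 1.25e-05). *Col4a6* was at 2.08 to 60.9 CPM (median 23.8) and 68.9 to 347 CPM (median 206) (log2 fold change −3.41 ± 0.57, adjusted p = 1.99e-04). Neither collagen IV chain overlapped. *Col15a1* was higher in Fgfr2+ FB (log2 fold change 2.31 ± 0.63, adjusted p = 0.0329), with no overlap, but its call ended when any 1 of 9 libraries was left out (log2 fold changes from 2.19 to 2.34, adjusted p from 0.0506 to 0.101). Pathway calls were 0 of the 19 folding and modification genes (edgeR; 2 with an unadjusted p below 0.05, 0 called by DESeq2), 3 of the 13 processing and cross-linking genes (2 higher and 1 lower) and 3 of the 7 receptor and uptake genes (1 higher and 2 lower). *Tll2*, a procollagen C-proteinase gene, was at 0 to 0.361 CPM against 0.679 to 57.0 CPM (log2 fold change −7.71 ± 1.22, adjusted p = 2.35e-04). *Itga11* was at 134 to 249.6 CPM against 283 to 1961 CPM (log2 fold change −1.85 ± 0.37, adjusted p = 0.00183).

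SI CD34+ FB were compared with the SI Fgfr2+ and PDGFRα hi FB, asking what sets the collagens of the CD34+ gate apart. These libraries are those used against pericytes and SMC. CD34+ FB had 6 collagens higher and 3 lower of the 42 tested, where 2.05% of all tested genes were called higher and 0.678% lower. The median was 0.50 log2 over the collagens and 0.03 over all tested genes. *Rgs5* was higher in CD34+ FB than in the other 6 libraries, while *Kcnj8*, of the same pericyte list, was lower; smooth muscle markers were lower, with mean sums of 129.7 CPM against 676 CPM in Fgfr2+ and 2615 CPM in PDGFRα hi FB. Their part was not tested. For all 9 called genes the CD34+ FB libraries did not overlap the others.

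*Col1a1* was at 37043, 14836 and 24424 CPM in CD34+ FB and 3489 to 6053 CPM (median 5143) in the other 6 libraries (log2 fold change 2.34 ± 0.29, adjusted p = 3.28e-06). *Col3a1* was at 26047, 9072 and 18221 CPM against 1494 to 4902 CPM (median 2667) (log2 fold change 2.81 ± 0.26, adjusted p = 2.19e-08). All 3 CD34+ FB libraries were above for both genes. *Col1a2* was higher (log2 fold change 1.66 ± 0.23, adjusted p = 1.94e-05), and its call ended without SI CD34+ FB replicate 1 (log2 fold change 1.31, adjusted p = 0.00206). *Col24a1* was lower (log2 fold change −4.13 ± 1.17, adjusted p = 0.0474), and its call ended when any 1 of 19 libraries was left out (log2 fold changes from −4.42 to −3.83, adjusted p from 0.0525 to 0.226) and with the replicate block. *Col27a1*, a fibrillar chain, was at 54.6, 86.2 and 106 CPM against 247 to 541 CPM (median 393) (log2 fold change −2.24 ± 0.41, adjusted p = 8.21e-04).

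*Col8a1* was at 635, 396 and 384 CPM in CD34+ FB against 1.34 to 11.8 CPM (median 2.05) (log2 fold change 7.41 ± 0.90, adjusted p = 2.07e-06). *Col14a1* was at 2694, 2142 and 2066 CPM against 80.8 to 1285 CPM (median 370.0) (log2 fold change 2.83 ± 0.36, adjusted p = 5.12e-06), and *Col12a1* at 416, 478 and 631 CPM against 751 to 5444 CPM (median 3076) (log2 fold change −2.12 ± 0.35, adjusted p = 1.71e-04). These FACIT genes differed in opposite directions. *Col28a1* was at 3.24, 2.79 and 3.22 CPM against 0 to 0.919 CPM (median 0.0349) (log2 fold change 4.63 ± 0.82, adjusted p = 6.44e-04). Pathway calls were 1 of the 19 folding and modification genes (higher), 3 of the 13 processing and cross-linking genes (all higher) and 1 of the 7 receptor and uptake genes (lower). *Lox*, a lysyl oxidase, was at 196, 113 and 179 CPM against 10.7 to 137 CPM (log2 fold change 2.03 ± 0.39, adjusted p = 0.0014).

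Colonic CD81+ FB were compared with the other 3 colonic fibroblast populations, whose libraries also served against colonic pericytes. Of the 42 tested collagens 4 were higher and 6 lower in CD81+ FB, where 2.37% of all tested genes were called higher and 1.08% lower. The median was 0.30 log2 over the collagens and 0.06 over all tested genes. Smooth muscle markers summed to 264, 34.95 and 36.9 CPM in CD81+ FB. Their mean sums were 136 CPM in CD90+, 293 CPM in Fgfr2+ and 1500.3 CPM in PDGFRα hi FB. Mean sums of pericyte markers were 175 CPM in CD81+ FB, against 229, 656 and 453 CPM in these populations. The part of these markers was not tested. *Col14a1* was at 3322, 4661 and 4189.8 CPM in CD81+ FB and 25.5 to 1533 CPM (median 897) in the other 9 libraries, with no overlap (log2 fold change 3.66 ± 0.32, adjusted p = 4.53e-08). *Col8a1* was at 1924, 1833 and 3269 CPM against 5.62 to 843 CPM (median 153), with no overlap (log2 fold change 4.49 ± 0.68, adjusted p = 8.07e-05). *Col16a1* was at 112, 43.6 and 1068 CPM against 52.5 to 114 CPM (median 85.6), with overlap (log2 fold change 2.36 ± 0.54, adjusted p = 0.00758). Replicate 3 carried the *Col16a1* difference, and its call ended without CD81+ FB replicate 3 (log2 fold change −0.01, adjusted p = 1), where the direction turned. *Col20a1* was at 129.9, 9.59 and 24.2 CPM, highest in replicate 1, against 1.84 to 16.6 CPM (median 7.40) and overlapped (log2 fold change 2.90 ± 0.80, adjusted p = 0.0342). The *Col20a1* call ended when any 1 of 8 libraries was left out, namely CD81+ FB replicate 1, CD90+ FB replicates 1, 2 and 3, colonic Fgfr2+ FB replicates 1 and 2 and colonic PDGFRα hi FB replicates 1 and 3 (log2 fold changes from 1.21 to 2.99, adjusted p from 0.0518 to 0.764) and with the replicate block.

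Of the lower genes, *Col6a5* was at 0.859, 0.0631 and 0.416 CPM in CD81+ FB against 9.04 to 77.5 CPM (median 42.0), with no overlap (log2 fold change −6.60 ± 0.92, adjusted p = 2.82e-05). *Col6a4* was at 1.33, 0.820 and 0.666 CPM against 7.02 to 156 CPM (median 30.1), with no overlap (log2 fold change −5.13 ± 0.58, adjusted p = 1.49e-06). *Col12a1* was at 930.0, 226 and 409 CPM against 2173 to 4046 CPM (median 3087), with no overlap (log2 fold change −2.51 ± 0.35, adjusted p = 2.42e-05). *Col28a1* was lower, with overlap (log2 fold change −4.06 ± 0.89, adjusted p = 0.00581). *Col27a1* was at 34.97, 12.9 and 40.4 CPM against 94.2 to 443 CPM (median 226) (log2 fold change −3.04 ± 0.42, adjusted p = 2.87e-05). *Col24a1* was at 5.93, 0 and 0.500 CPM against 14.3 to 152 CPM (median 37.2), with no overlap (log2 fold change −4.49 ± 1.18, adjusted p = 0.0235). The *Col24a1* call ended when any 1 of 2 libraries was left out, namely CD81+ FB replicates 2 and 3 (log2 fold changes from −3.99 to −3.90, adjusted p from 0.0825 to 0.0994), and its value moved to −7.61 without CD81+ FB replicate 1. *Col4a5*, not called, ranged widely among CD81+ FB, at 239.8, 26.4 and 663 CPM. Pathway calls were 2 of the 19 folding and modification genes (1 higher and 1 lower), 1 of the 13 processing and cross-linking genes (higher) and 0 of the 7 receptor and uptake genes (edgeR; 3 with an unadjusted p below 0.05, 0 called by DESeq2). *Pcolce2*, the gene of a procollagen C-proteinase enhancer, was at 554, 652 and 303 CPM against 0.815 to 30.7 CPM (log2 fold change 6.29 ± 0.87, adjusted p = 2.67e-05).

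Colonic CD90+ and Fgfr2+ FB, which share a PDPN hiCD34+ gate, gave no call in edgeR, with 0.00% of all tested genes called higher and 0.00% lower. Of the 42 tested collagens 4 had an unadjusted p below 0.05, as had 3.24% of all tested genes (569 genes). DESeq2 called 0 collagens and 37 genes in all. The collagen median was −0.05 log2 and that of all tested genes 0.01. Among the main chains, *Col1a1* was at 9380.1, 7959 and 11998 CPM in CD90+ FB and 8332, 6764 and 12222 CPM in Fgfr2+ FB. *Col3a1* was at 11733, 8387 and 11003 and 7948, 7660.4 and 13512 CPM. *Col8a1* was at 843, 585 and 636 and 153, 143 and 364 CPM (log2 fold change 1.64 ± 0.93, adjusted p = 1). The groups overlapped for *Col1a1* and *Col3a1*, and all CD90+ FB libraries were above for *Col8a1*. Pathway calls were 0 of the 19 folding and modification genes (edgeR; 2 with an unadjusted p below 0.05, 0 called by DESeq2), 0 of the 13 processing and cross-linking genes (edgeR; 0 with an unadjusted p below 0.05, 0 called by DESeq2) and 0 of the 7 receptor and uptake genes (edgeR; 1 with an unadjusted p below 0.05, 0 called by DESeq2).

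PDGFRα hi FB, Fgfr2+ FB and pericytes were each compared between SI and colon, to show how far collagen genes differ by tissue within a cell type. All of these libraries also served in comparisons above. In PDGFRα hi FB 2 collagens were higher and 2 lower in SI, where 0.336% of all tested genes were called higher and 0.627% lower. The median was −0.17 log2 over the collagens and 0.02 over all tested genes. Without colonic PDGFRα hi FB replicate 1 or 3 the count was 2. Their gates differed, by high PDGFRα in SI and by PDPN in colon, which cannot be told apart from the tissue. The pericyte markers, given above for SI, summed to 459, 409.8 and 490.5 CPM in the colonic libraries. Smooth muscle markers summed to 2080, 3395 and 2371 CPM in SI and 1246, 1136 and 2119 CPM in colon, and the part of these markers was not tested. *Col3a1* was at 1494, 1694 and 1531 CPM in SI and 6388, 5229 and 9922 CPM in colon, with no overlap (log2 fold change −2.19 ± 0.33, adjusted p = 1.54e-04). *Col6a4* was at 21.6, 13.5 and 14.2 and 118, 112 and 156 CPM, with no overlap (log2 fold change −2.97 ± 0.54, adjusted p = 0.00176). *Col23a1* was at 311, 445 and 233 and 2.82, 17.9 and 12.4 CPM (log2 fold change 4.90 ± 0.99, adjusted p = 0.00608). The *Col23a1* call ended when any 1 of 2 libraries was left out, namely colonic PDGFRα hi FB replicates 1 and 3 (log2 fold changes from 4.45 to 4.99, adjusted p from 0.0523 to 0.0654). *Col14a1* was at 80.8, 93.5 and 149 and 33.7, 25.5 and 33.1 CPM (log2 fold change 1.81 ± 0.45, adjusted p = 0.0423). The *Col14a1* call ended when any 1 of 15 libraries was left out (log2 fold changes from 1.501 to 1.98, adjusted p from 0.0502 to 0.263) and with the replicate block. The pathway lists had 1 of the 19 folding and modification genes (lower), 1 of the 13 processing and cross-linking genes (lower) and 1 of the 7 receptor and uptake genes (higher).

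In Fgfr2+ FB 2 collagens were higher and 5 lower in SI, where 0.513% of all tested genes were called higher and 0.941% lower. The median was −0.28 log2 over the collagens and −0.01 over all tested genes. These SI and colonic cells were sorted on opposite CD34 gates, which cannot be told apart from the tissue. Pericyte markers, given above for SI, summed to 539.8, 656 and 773 CPM in the colonic libraries, while the CD81+CD34+ adventitial markers summed to 141, 104 and 41.2 CPM in SI and 619, 435 and 834 CPM in colon, highest in colonic replicate 3. Mean sums of smooth muscle markers were 676 and 293 CPM. The part of these markers was not tested. *Col6a5* was at 1179, 989.6 and 983 CPM in SI and 40.6, 77.5 and 77.2 CPM in colon (log2 fold change 4.01 ± 0.80, adjusted p = 0.00451). *Col6a4* was at 358, 210.1 and 129 and 12.1, 48.0 and 30.1 CPM (log2 fold change 2.95 ± 0.54, adjusted p = 0.00183). Both were above in all SI libraries. *Col4a5* was at 6.84, 0.993 and 12.8 and 199.97, 73.0 and 156 CPM (log2 fold change −4.45 ± 0.86, adjusted p = 0.00325). Lower in SI as well was *Col8a1*, at 2.02, 2.17 and 11.8 and 153, 143 and 364 CPM (log2 fold change −5.52 ± 1.13, adjusted p = 0.00562), whose call ended when any 1 of 2 libraries was left out, namely SI Fgfr2+ FB replicates 1 and 2 (log2 fold changes from −5.11 to −5.08, adjusted p from 0.0575 to 0.0605). *Col12a1* was at 751, 1160.4 and 934 and 3087, 4046 and 3586 CPM (log2 fold change −1.91 ± 0.37, adjusted p = 0.00344). *Col4a6* was lower (log2 fold change −3.03 ± 0.79, adjusted p = 0.0469), with its call ending when any 1 of 18 libraries was left out (log2 fold changes from −3.45 to −2.66, adjusted p from 0.0534 to 0.179).

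*Col28a1* had 1 count over the 3 SI Fgfr2+ FB libraries and 693 counts over the 3 colonic ones, a colon to SI ratio of 678 after scaling by library size (95% interval 121 to 26799, from the summed counts). With the floor of 3 counts per library the ratio is at least 47.0, or 99.2 without the shallow SI replicate 3. The colonic libraries were at 36.7, 20.1 and 14.7 CPM. Pathway calls in this comparison were 2 of the 19 folding and modification genes (both lower), 1 of the 13 processing and cross-linking genes (lower) and 0 of the 7 receptor and uptake genes (edgeR; 1 with an unadjusted p below 0.05, 0 called by DESeq2). *Plod2*, a lysyl hydroxylase of telopeptides, was at 70.5, 71.6 and 102 CPM in SI against 533, 497 and 737 CPM in colon (log2 fold change −2.86 ± 0.58, adjusted p = 0.00554).

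In pericytes 3 collagens were higher and 4 lower in SI, where 2.98% of all tested genes were called higher and 2.74% lower. The median was 0.37 log2 over the collagens and 0.00 over all tested genes. In an edgeR fit of only the compared libraries 0 of the 7 were called, as were 0 genes in all. In that fit 13 collagens had an unadjusted p below 0.05. DESeq2 with all libraries called 12 collagens and 13.7% of all tested genes, against 5.72% in the main fit. Without SI pericyte replicate 1 the count was 3. The higher smooth muscle markers of colonic pericytes are given above. The CD81+CD34+ adventitial markers summed to 8.37, 19.1 and 20.2 CPM in SI and, led by *Cd81*, to 238, 223 and 187 CPM in colon. *Cd81* alone had a mean of 202 CPM in colonic pericytes, of a mean sum of 216 CPM. *Dpp4* and *Ly6c1* had no count there. *Cd34* overlapped between the tissues, at 6.23, 1.14 and 16.6 CPM in SI and 8.71, 12.4 and 14.5 CPM in colon. The part of these markers was not tested. *Col12a1* was at 314, 187 and 199.8 CPM in SI and 39.8, 62.1 and 24.1 CPM in colon, with no overlap (log2 fold change 2.48 ± 0.38, adjusted p = 2.08e-04). *Col6a4* was at 0.644, 0.126 and 1.23 and 24.8, 27.7 and 11.7 CPM, with no overlap (log2 fold change −4.97 ± 0.64, adjusted p = 2.66e-05). *Col6a1* was at 1659.8, 555 and 319 and 89.1, 325 and 191 CPM and overlapped, SI replicate 1 being highest (log2 fold change 2.07 ± 0.41, adjusted p = 0.00356). The *Col6a1* call ended without SI pericytes replicate 1 (log2 fold change 1.08, adjusted p = 0.0715). *Col6a2* was higher (log2 fold change 1.66 ± 0.31, adjusted p = 0.002), its call ending when any 1 of 3 libraries was left out, namely SI pericytes replicate 1 and colonic pericytes replicates 1 and 3 (log2 fold changes from 1.303 to 1.47, adjusted p from 0.0147 to 0.0152). *Col4a6* was at 0.429, 15.7 and 7.01 and 70.4, 42.3 and 48.1 CPM (log2 fold change −2.78 ± 0.79, adjusted p = 0.0348). The *Col4a6* call ended when any 1 of 3 libraries was left out, namely SI pericytes replicates 1 and 3 and colonic pericytes replicate 1 (log2 fold changes from −2.71 to −2.26, adjusted p from 0.0588 to 0.0838).

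*Col19a1* had 1 count over the SI pericyte libraries and 770 over the colonic ones, a colon to SI ratio of 512 (95% interval 91.6 to 20241), or at least 47.9 with the floor (30.7 without colonic replicate 3, the highest). *Col8a2* had 0 counts in SI pericytes and 9.57, 0.126 and 0.359 CPM in colonic ones, at least 7.23-fold lower in SI. This bound rests on colonic replicate 1, the other 2 libraries being below the floor. The *Col8a2* call ended when any 1 of 23 libraries was left out (log2 fold changes from −8.20 to −4.48, adjusted p from 0.0501 to 0.238) and with the replicate block. Pathway calls were 2 of the 19 folding and modification genes (both higher), 3 of the 13 processing and cross-linking genes (2 higher and 1 lower) and 1 of the 7 receptor and uptake genes (higher).

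The SI against colon difference was tested between Fgfr2+ and PDGFRα hi FB (an interaction over 12 libraries). The gates of both subsets differed between tissues, as described above. The interaction was called for 4 of the 42 collagens, 1 with a positive and 3 with a negative value, where 0.661% of all tested genes were called. The median was −0.09 log2 over the collagens and −0.08 over all tested genes. *Col6a4* was higher in SI in Fgfr2+ FB and lower in SI in PDGFRα hi FB, with the libraries given above (difference in log2 fold change 5.92 ± 0.76, adjusted p = 1.67e-04). *Col12a1* was at 5018, 5444 and 4992 CPM in SI and 3249, 2992 and 3734 CPM in colonic PDGFRα hi FB, where every SI library was above, while in Fgfr2+ FB every SI library was below (difference in log2 fold change −2.55 ± 0.51, adjusted p = 0.0108). *Col23a1* was at 8.93, 20.3 and 11.8 CPM in SI and 28.2, 16.1 and 18.5 CPM in colonic Fgfr2+ FB (difference in log2 fold change −5.52 ± 1.28, adjusted p = 0.0335), and its call ended when any 1 of 12 libraries was left out (log2 fold changes from −6.06 to −5.06, adjusted p from 0.051 to 0.126). *Col28a1* was at 0, 0.113 and 0.919 CPM in SI and 1.23, 0.383 and 0.407 CPM in colonic PDGFRα hi FB (difference in log2 fold change −8.05 ± 1.55, adjusted p = 0.0083). With 1 count in SI Fgfr2+ FB, this value depends on the prior count. The *Col28a1* call ended without SI PDGFRα hi FB replicate 3 (log2 fold change −5.998, adjusted p = 0.188). *Col4a5*, not called in the main fit, was called with the replicate block, by DESeq2, without the filter and with only the compared libraries. The pathway lists gave 0 of the 19 folding and modification genes (edgeR; 2 with an unadjusted p below 0.05, 0 called by DESeq2), 0 of the 13 processing and cross-linking genes (edgeR; 2 with an unadjusted p below 0.05, 0 called by DESeq2) and 0 of the 7 receptor and uptake genes (edgeR; 4 with an unadjusted p below 0.05, 0 called by DESeq2). With only the compared libraries edgeR called 1 receptor and uptake gene.

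Pairs of collagen chains were compared by the ratio of their levels per length in each of the 30 libraries. The pairs are of chains that assemble together, except *Col3a1* and *Col1a1*, which belong to different collagens. The ratio of *Col1a1* to *Col1a2* had a median of 1.32 (0.515 to 2.105). That of *Col4a1* to *Col4a2* was 1.11 (0.624 to 2.56) and that of *Col6a1* to *Col6a2* was 0.527 (0.378 to 1.22). These 3 ratios varied less over the libraries than the others. *Col3a1* to *Col1a1* was 1.87 (0.608 to 6.82), or 0.923 from counts not divided by length. For *Col6a3* to *Col6a1* the median was 0.682 (0.136 to 3.84), or 1.48 from counts not divided by length. Per length, its group medians were 1.46 in CD81+ FB, 1.14 in SI CD34+ FB and 0.313 in SI PDGFRα hi FB. *Col4a5* to *Col4a6* was 3.82 (0.0920 to 63.4) in the 29 libraries where *Col4a6* had more than 3 counts, which leaves out SI pericyte replicate 1 with 2 counts. These libraries are not independent observations, since 3 came from each population.

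Several collagen genes lie next to each other in the genome (GRCm38). *Col4a1* and *Col4a2* are head to head on chromosome 8, at 11198423 to 11312826 on the minus strand and 11312805 to 11449287 on the plus strand, and their annotated starts overlap by 22 bases, a gap of −22. *Col4a4* (82448423 to 82586849, minus) and *Col4a3* (82586921 to 82722059, plus) are head to head on chromosome 1 with a gap of 71 bases. On chromosome X *Col4a6* (141165403 to 141474076, minus) and *Col4a5* (141475385 to 141689234, plus) are head to head with a gap of 1308 bases. Against these, *Col6a6*, *Col6a5* and *Col6a4* follow each other on the minus strand of chromosome 9 with gaps of 27917 and 28810 bases, and *Col6a2* and *Col6a1* lie 85161 bases apart on chromosome 10. *Col3a1* and *Col5a2* lie tail to tail on chromosome 1 with 24614 bases between them, and *Col9a1* and *Col19a1* likewise with 9205 bases. Both genes of a collagen IV pair were called in some comparisons and only 1 in others. *Col4a1* and *Col4a2* were both called in SI pericytes against SI fibroblasts, and *Col4a2* alone against SMC. *Col4a3* and *Col4a4* were both called in these 2 comparisons. *Col4a5* and *Col4a6* were both called in SMC against SI fibroblasts, in Fgfr2+ against PDGFRα hi FB and in Fgfr2+ FB between tissues; *Col4a5* alone was called in colonic pericytes against colonic fibroblasts and in SI pericytes against SMC, and *Col4a6* alone in pericytes between tissues. The microfibril neighbours *Col6a4* and *Col6a5* were both called in 1 direction in SI pericytes against SI fibroblasts and against SMC, in CD81+ FB and in Fgfr2+ FB between tissues, and in opposite directions in SMC against SI fibroblasts. *Col6a5* alone was called in colonic pericytes against colonic fibroblasts, and *Col6a4* alone between tissues in PDGFRα hi FB and in pericytes and in the interaction. Some of these calls ended with 1 library left out, as given with each comparison, and the comparisons share libraries.

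Upstream sequences of 35 of the 44 collagens were in the RefSeq promoter table (build GRCm38.p6), as 38 windows of 250 bases before the start. None was listed for *Col1a1*, *Col2a1*, *Col4a3*, *Col5a2*, *Col9a3*, *Col12a1*, *Col14a1*, *Col22a1* and *Col26a1*. Both strands were searched for 4 motifs, whose letters and counts follow. CCAAT was in 13 of the 38 collagen windows (33.8% of all 32851 windows held it), GGGCGG in 22 (32.7%), CCCTCCCC in 10 (9.69%) and TATAAA in 5 (12.4%). A match is a description of letters only.

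Stretches are shown for *Col1a2*, which differed between pericytes and fibroblasts, and for the collagen IV genes *Col4a2*, *Col4a5* and *Col4a6*, whose neighbours share a start region. They are credited to RefSeq and run 5′ to 3′. Capitals mark matches of the motifs above within each stretch. Only the *Col4a6* stretch is a whole window, and the other windows hold further matches that are not shown. These are of CCAAT and CCCTCCCC for *Col1a2*, of GGGCGG for *Col4a2*, and of GGGCGG and CCCTCCCC for *Col4a5*. *Col1a2* is chr6:4505370-4505492 on the plus strand, upstream of the RefSeq start but inside the gene as GENCODE places it (4504814 to 4541544), in none of its exons, with GGGCGG and GGGGAGGG, which is the reverse strand of CCCTCCCC, in capitals; a GGGCGG match overlaps GGGGAGGG. *Col4a2* is chr8:11312773-11312799 on the plus strand (27 bases, from 32 to 6 before the start), which lies in an exon of *Col4a1*, with CCAAT and CCCTCCCC in capitals. *Col4a5* is chrX:141475169-141475381 on the plus strand (213 bases, from 250 to 38 before the start), with CCAAT in capitals. *Col4a6* is chrX:141474077-141474326 on the minus strand (250 bases), with CCGCCC, the reverse strand of GGGCGG, in capitals.
Col1a2: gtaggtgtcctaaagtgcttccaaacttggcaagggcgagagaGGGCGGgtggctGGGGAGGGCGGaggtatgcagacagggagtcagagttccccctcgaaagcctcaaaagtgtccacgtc
Col4a2: CCAATttgttggcgctgccCCCTCCCC
Col4a5: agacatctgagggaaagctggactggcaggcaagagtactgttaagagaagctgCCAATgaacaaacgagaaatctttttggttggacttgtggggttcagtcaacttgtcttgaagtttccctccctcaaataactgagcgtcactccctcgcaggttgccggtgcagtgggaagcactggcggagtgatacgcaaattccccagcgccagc
Col4a6: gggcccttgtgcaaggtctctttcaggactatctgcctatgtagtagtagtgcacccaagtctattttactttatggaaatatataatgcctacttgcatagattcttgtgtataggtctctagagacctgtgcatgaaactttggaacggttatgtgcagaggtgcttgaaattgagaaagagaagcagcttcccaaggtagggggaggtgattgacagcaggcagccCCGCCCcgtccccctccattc

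The remaining collagens had no call between populations in the main fit, and most were low. *Col11a1* had at most 3.36 CPM in any library and *Col11a2* at most 12.1 CPM, in SI Fgfr2+ FB replicate 1. *Col10a1* reached 10.1 CPM in CD90+ FB and *Col6a6* 8.01 CPM in SI CD34+ FB. *Col9a3* had up to 16.3 CPM, *Col17a1* 7.38 CPM and *Col25a1* 15.6 CPM. *Col26a1* reached 29.96 CPM in colonic pericytes. These genes passed the low-count filter without a call in any comparison above. *Col18a1*, a multiplexin, was at 58.6 to 474 CPM over all libraries, and *Col22a1*, a FACIT at muscle junctions, at 2.14 to 31.5 CPM. Both passed the test of any difference and neither was called between populations by edgeR. *Col18a1* had an adjusted p below 0.05 with a fold change under the cut in SMC against SI fibroblasts (log2 fold change −1.15 ± 0.35, adjusted p = 0.0435) and in colonic pericytes against colonic fibroblasts (log2 fold change 1.09 ± 0.29, adjusted p = 0.00821). DESeq2 called *Col22a1* between SI and colon in Fgfr2+ FB and in pericytes, and in the interaction. *Col2a1* reached 0.780 CPM and *Col9a1* 2.69 CPM; without the filter *Col9a1* was called in colonic pericytes against colonic fibroblasts and in the test of any difference.

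Reads can be shared between genes with alike sequence. Over stretches of 31 bases, 24 of the 44 collagens shared none with another gene and 39 shared less than 1%. *Col9a3* shared 5.35%, *Col6a6* 4.31%, *Col6a5* 3.98%, *Col26a1* 2.75% and *Col22a1* 1.52%. *Col6a5* and *Col6a6* shared 375 such stretches with each other.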

How the data were processed

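RNA of 30 libraries (10 sorted populations, 3 each) was analysed from the authors' estimated counts per transcript, deposited with effective lengths and TPM (length-scaled transcript abundance) from kallisto 0.42.5; the submitters' notes name Trim Galore 0.4.0 and FastQC 0.11.2. Deposited estimated counts were summed to gene symbols with the GENCODE M21 annotation (97116 of 98492 transcripts matched, 97.8 to 99.2% of counts per library) and rounded. The authors' TPM served as an alternative scale only. The members and the marker and pathway lists were chosen with earlier results of these data known.

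A gene entered the tests when 3 or more libraries held 6 or more counts of it. The fit used edgeR 4.0.16 (R 4.3.3): trimmed mean of M values scaling, quasi-likelihood F tests and 1 mean per population, with Benjamini-Hochberg adjustment over all 17542 genes. SE was taken from the fold change and its F value, as the former's size over root F. Calls needed an adjusted p below 0.05 and, except for the test of any difference, an absolute log2 fold change above 1.5. In each comparison every called collagen was named, or the 12 with the largest absolute log2 fold change where more than 12 were called, and others could be named.

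Alternatives were DESeq2 1.42.0, relative log expression scaling, no filter, a stricter filter (10 counts), a log2 fold change above 1, a block for replicate number, only the compared libraries, each library left out, other denominators for shares and counts not divided by length. Both tools were also run on simulated data, and no result above rests on those runs. Levels and figures used Python 3.11.15 with pandas 2.3.3, numpy 2.4.6, scipy 1.17.1 and matplotlib 3.10.9. Depth is given per library in the text, and a gene at 0 was bounded with 3 counts per library.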

Additional observations from a re-analysis of the deposited data

Results flagged for a closer look

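The SI against colon difference of Fgfr2+ FB differed from that of PDGFRα hi FB, by a test of the interaction, for 4 collagen genes. The difference in log2 fold change was 5.92 for *Col6a4*, −2.55 for *Col12a1*, −5.52 for *Col23a1* and −8.05 for *Col28a1*. The *Col28a1* value rests on 1 count in SI Fgfr2+ FB and depends on the prior count. The *Col23a1* call ended when any 1 of 12 libraries was left out and the *Col28a1* call without SI PDGFRα hi FB replicate 3. Fgfr2+ FB were sorted as CD34- in SI and CD34+ in colon, and PDGFRα hi FB as PDGFRα hiCD34- in SI and PDPN+CD34- in colon, which cannot be told apart from the tissue.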

How the results depend on the processing

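The values of the named genes, 112 gene and comparison pairs, were recomputed under the other settings. Of 782 values with all libraries, 754 kept their direction and side of the call and 28 kept the direction without the call. With 1 library left out, 3174 of 3360 values kept both, 185 lost the call and 1 reversed: *Col16a1* in CD81+ FB was −0.0071 without CD81+ FB replicate 3, in a range of −0.0071 to 2.89 over the libraries left out.

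Of the counts of called collagens, these moved by more than 1.5 times. In SI pericytes against SMC, 4 were called with only the compared libraries, where all called genes fell from 1779 to 390. With 1 library left out 10 to 17 were called. In pericytes between tissues, DESeq2 called 12, a fit of only the compared libraries 0, and the fits leaving out 1 library 3 to 9. Of all tested genes, DESeq2 called 13.7% there and the main fit 5.72%, while the fit of only the compared libraries called 0 genes. DESeq2 called 7 in the interaction, and 2.11% of all tested genes against 0.661% in the main fit. PDGFRα hi FB between tissues had 2 to 4 with 1 library left out. A fit of only the compared libraries has fewer samples to estimate spread, but its count of called genes did not fall in every comparison. For PDGFRα hi FB between tissues it called 406 genes, where the main fit called 169. The matching counts for Fgfr2+ FB were 253 and 255. What caused the moves listed here was not tested.

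As a share of the TPM of matched genes, collagens took 0.462% in SI pericytes, 0.506% in SMC, 3.11% in SI CD34+ FB, 1.24% in SI Fgfr2+ FB, 1.19% in SI PDGFRα hi FB, 0.272% in colonic pericytes, 2.46% in CD81+ FB, 1.89% in CD90+ FB, 1.78% in colonic Fgfr2+ FB and 1.77% in colonic PDGFRα hi FB. These are lower than the shares of counts, and TPM divides counts by transcript length. Median chain ratios from counts not divided by length were 1.54 for *Col1a1* to *Col1a2*, 0.923 for *Col3a1* to *Col1a1* and 1.48 for *Col6a3* to *Col6a1*.

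With a block for replicate number, the counts of called collagens were 21 for SI pericytes and 12 for SMC against SI fibroblasts, 17 for colonic pericytes and 15 for SI pericytes against SMC. They were 5 for Fgfr2+ against PDGFRα hi FB, 9 for SI CD34+ FB, 9 for CD81+ FB and 0 for CD90+ against Fgfr2+ FB. Between tissues they were 3 in PDGFRα hi FB, 7 in Fgfr2+ FB and 6 in pericytes, with 5 in the interaction and 31 in the test of any difference. The study describes subsets of both tissues as taken from the same mice, but the labels do not say that libraries of 1 number share a mouse. Over 45 pairs of populations, the correlation of same-numbered libraries' deviations from their population means averaged 0.00754 (−0.112 to 0.135). By the mean of these correlations, 23 of the 30 libraries were nearest to libraries of their own number in other populations.

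Populations had 3 libraries, SI Fgfr2+ FB replicate 3 had 2245052 counts, and several calls rest on genes with few counts. A count of 0 in a library does not show that a gene is absent.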
